A study of Homo sapiens with 6 samples.

Results

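The members described here are cassette exons of the nuclear genes for the respiratory chain and the ATP synthase. An exon skipping event was a member if its middle exon lay, on the same strand, in a protein-coding GENCODE 29 gene with a symbol starting with NDUF, SDH, UQCR, COX and a digit, or ATP5. It also had to hold at least 20 informative reads in siCtrl and in at least 1 knockdown pool, where an informative read fits only the inclusion form or only the exclusion form. Of 47986 events in the series, 170 met the rule, and of 20285 events with the same number of reads anywhere, these were the 170 in such genes. They describe 159 different skipped exons, of 40658 in the series, in 66 genes. Complex I contributed 76 exons of 29 genes, complex II 18 exons of 4 genes, complex III 13 exons of 6 genes, complex IV 26 exons of 15 genes, and the ATP synthase 26 exons of 12 genes.

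The study silenced 2 spliceosomal proteins with siRNAs in MDA-LM2, a lung-metastatic derivative of a human triple-negative breast cancer cell line, and sequenced stranded total RNA 48 h after transfection. siSNRPA1 cells (3 libraries) received siRNAs against SNRPA1, a protein of the particle that recognises the branch point of introns. siSNRPB cells (1 library) received siRNA against SNRPB, a protein of the ring shared by most spliceosomal particles, and siCtrl cells (2 libraries) are the control transfection. The series text names 3 siRNAs for SNRPA1 and 2 for SNRPB, and once writes SNRPB2; which library received which siRNA is not told there. All groups share the cell line, the transfection and the time. The deposited exon inclusion values come as 1 summary per group, so libraries are merged within their group, no replicate enters, and every test below compares the reads of 2 pools and not the conditions.

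The respiratory chain passes electrons from NADH through complex I, or from succinate through complex II, to ubiquinone, then through complex III and cytochrome c to complex IV, which reduces oxygen. The protons pumped on the way drive the ATP synthase. Most subunits of these complexes are encoded in the nucleus, and dedicated assembly factors insert their cofactors and join their modules. Skipping of an exon within the coding sequence either removes a stretch of the protein or, where the length is not a multiple of 3 bases, shifts the reading frame.

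The exon that fell in both knockdowns and 3 of the 4 other coding exons of complex I that passed the test, all but the 1095-base exon of NDUFV3, are printed from GENCODE 29 transcripts (build hg38). For NDUFAF2 and NDUFB6 each printed exon is all that its skipped form lacks. For NDUFB5 the skipped form also lacks exon 2, whose last 15 bases are the lower case letters before the capitals. Capitals mark the skipped exon, and the lower case letters are the 15 bases on either side of it in the messenger RNA, 5′ to 3′ on the gene's strand. They lie at chr3:179615983-179616049 (+), chr5:61098992-61099032 (+), chr9:32558910-32558954 (-) and chr9:32570960-32571052 (-) in that order, and all are coding exons.
NDUFB5 exon of 67 bases: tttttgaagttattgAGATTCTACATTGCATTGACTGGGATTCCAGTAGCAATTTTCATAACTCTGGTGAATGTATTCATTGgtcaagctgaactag
NDUFAF2 exon of 41 bases: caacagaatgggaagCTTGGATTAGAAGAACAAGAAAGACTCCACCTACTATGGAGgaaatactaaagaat
NDUFB6 exon of 45 bases: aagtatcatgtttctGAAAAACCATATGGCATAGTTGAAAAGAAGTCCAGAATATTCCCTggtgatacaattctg
NDUFB6 exon of 93 bases: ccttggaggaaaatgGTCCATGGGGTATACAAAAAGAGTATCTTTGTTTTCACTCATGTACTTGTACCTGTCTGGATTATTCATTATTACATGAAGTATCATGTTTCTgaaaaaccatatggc

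The exclusion forms are shown for 3 of the named events in which more than one exon, or most of the coding sequence, is left out. Lower case letters are the last 15 bases before the new junction and capitals are the first 15 bases after it.
NDUFB5, exon 1 joined to exon 4: ttccgaaggctgctgGTCAAGCTGAACTAG
NDUFV3, exon 2 joined to exon 4: aaagtccaccaaaaaAGCCAGCCCCAGTGC
SDHAF2, exon 1 joined to exon 4: tcgacttcgtcgctgAAGCTAAACCAGCCC

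For NDUFAF2 and for NDUFS1, whose 92-base coding exon lies at chr2:206152419-206152510 (-), the exclusion form is read on in the annotated frame from 15 bases before the junction to the first stop codon, which is in capitals.
NDUFAF2 exclusion form: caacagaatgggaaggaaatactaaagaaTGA
NDUFS1 exclusion form: ctcctaaaggatgtggcttgTGA

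The targeted genes were checked first, by the reads that fit an isoform of their events, scaled to 1000000 reads of that kind in the pool (RPM). SNRPA1 had 21.9 RPM in siSNRPA1 and 118 in siCtrl, which is 18.5% of siCtrl, while siSNRPB had 272. SNRPB had 30.6 RPM in siSNRPB and 247 in siCtrl, which is 12.4%, while siSNRPA1 had 337. The pools differed in depth: informative reads over all events summed to 7831446 in siSNRPA1, 3396043 in siSNRPB and 5707839 in siCtrl. The members were deeper than other exons of the same read minimum, with a median of 274, 119 and 219 informative reads in siSNRPA1, siSNRPB and siCtrl, against 123, 50 and 91 over all 17934 such exons.

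The test needed 20 or more informative reads per pool, and over the 2 pools together 5 or more for inclusion as well as for exclusion. An exon passed with an adjusted exact p under 0.05 (two-sided Fisher's exact test on informative reads, Benjamini-Hochberg adjustment over all tested exons of the series; every p below is from this test) and a difference of at least 0.1 in the authors' inclusion level, which runs from 0 to 1, in the direction of the read shares. "Rose" and "fell" below refer to exons that passed. In siSNRPA1 against siCtrl, 5 of 76 tested members fell and none rose, which is 6.58%; among all 6459 tested exons 17% passed, 12.8% falling and 4.18% rising. In siSNRPB against siCtrl, 2 of 55 fell and none rose, 3.64%, beside 21.3% of all 4244 tested exons, of which 16.7% fell and 4.62% rose. Between the knockdowns, 2 of 66 tested members were lower in siSNRPA1 than in siSNRPB and 1 was higher, 4.55%, beside 14.7% of 5082 exons, 6.38% lower and 8.28% higher.

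These counts come from 8 exons of 7 genes, and 59 of the 66 genes had no exon that passed. Without a minimum for the difference, an adjusted p under 0.05 was found in 24 of 76 members in siSNRPA1 (31.6%, beside 31.8% of all tested exons). For siSNRPB it was 20 of 55 (36.4%, beside 38%), and between the knockdowns 16 of 66 (24.2%, beside 26.9%). The members' median difference from siCtrl in level was -0.01 for siSNRPA1 and -0.02 for siSNRPB, beside -0.02 and -0.01 for all tested exons, and 0 between the knockdowns for both sets. The members thus had a share near that of all exons on the p alone and a smaller share once a difference of 0.1 was asked for. Of the 159 members, 49 overlap another member exon, so some reads count more than once. Tested members were also deeper, with medians of 300 informative reads in siSNRPA1 and 230.5 in siCtrl, beside 127 and 92 over all tested exons. The shares are therefore not like for like.

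Several of these calls did not hold under other settings. With reads thinned to the smallest pool, NDUFV3 was the member that still passed in siSNRPA1, and the NDUFB5 exon had an adjusted exact p of 0.0548. With the share of inclusion reads in place of the level, 5 members fell and 5 rose in siSNRPA1, and 3 of the 5 that fell by level were among these 10. In siSNRPB 6 fell and 2 rose by that share, so the absence of rising members holds for the level and not for the read share. NDUFAF2 (a difference of -0.0796), NDUFV3 (-0.0448), SDHAF2 (-0.0583 in siSNRPB) and ATP5MD (-0.067 between the knockdowns) were then under the minimum. By the authors' Bayes factor of at least 10, in place of the test, 3 members fell and 2 rose in siSNRPB. Those that rose were the ATP5MD exon and the 93-base exon of NDUFB6. For siSNRPA1 the 45-base exon of NDUFB6 and the COX11 exon did not pass by it. The ATP5MD exon and the 92-base exon of NDUFS1 did.

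**Figure D1:**
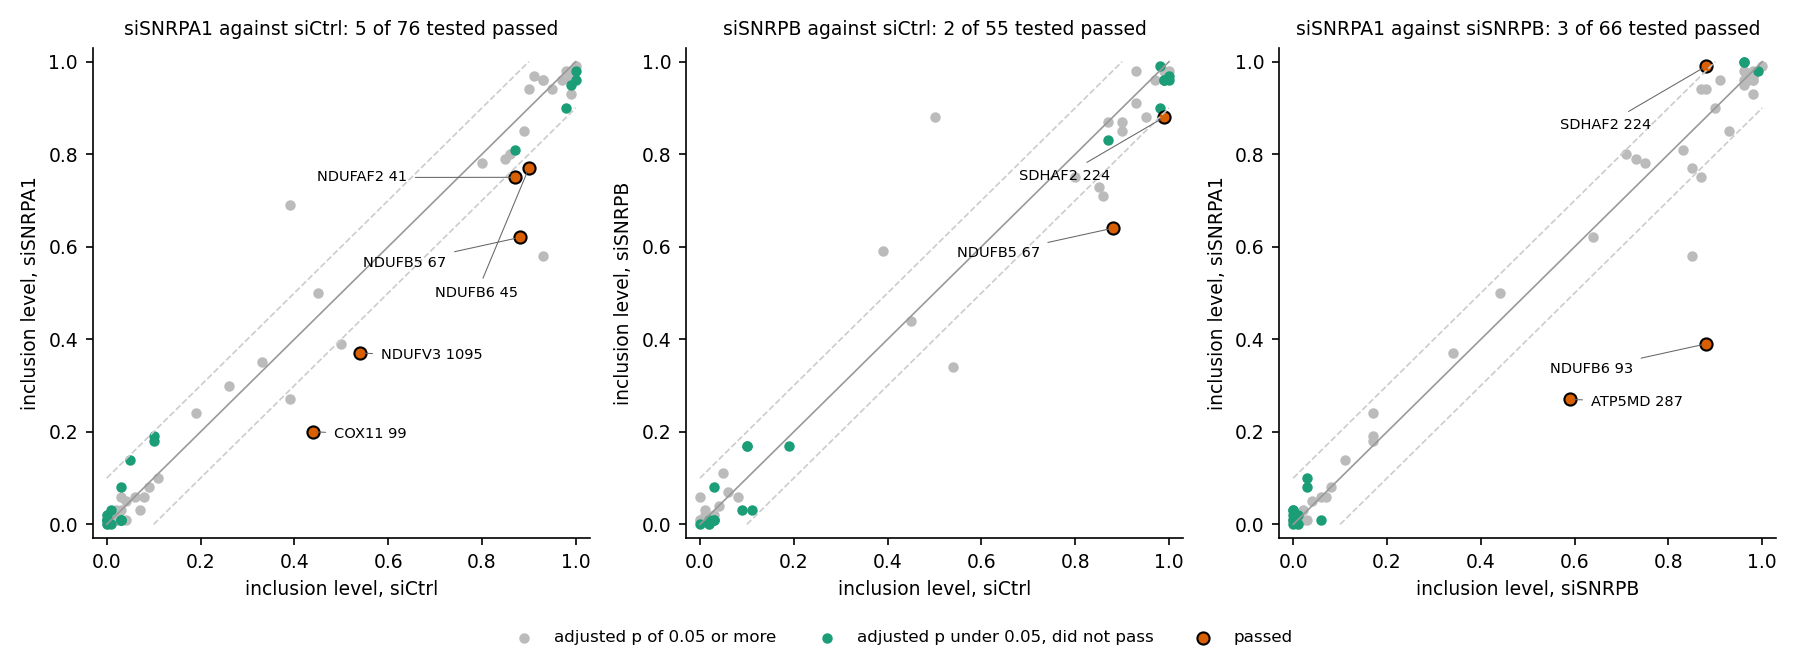
Authors' inclusion level (0 to 1) of every tested member exon in one pool against another, in 3 panels: siSNRPA1 over siCtrl, siSNRPB over siCtrl, and siSNRPA1 over siSNRPB. Each point is an exon, the solid line marks equal levels, the dashed lines a difference of 0.1, and the named exons passed; most of the green points, with an adjusted p under 0.05, lie between the dashed lines near 0 or 1.

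The starting levels of the members differed from those of other exons. Of the 76 members tested in siSNRPA1, 39 (51.3%) had an inclusion level under 0.1 in siCtrl, beside 31.5% of all tested exons, and in that class 0 of 39 members passed in siSNRPA1, beside 78 of 2033 exons (3.84%), and 0 of 24 in siSNRPB, beside 67 of 1342 (4.99%). At levels of 0.1 to 0.9 in siCtrl, 5 of 21 members passed in siSNRPA1 (23.8%), beside 740 of 3110 exons (23.8%). In siSNRPB, 1 of 16 members passed in that class (6.25%), beside 581 of 2061 exons (28.2%). Over 0.9, where an exon is nearly always included in siCtrl, 0 of 16 members passed in siSNRPA1 beside 279 of 1316 exons (21.2%), and 1 of 15 in siSNRPB beside 255 of 841 (30.3%). The differences in these shares were not tested, and exons of one gene share reads.

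**Figure D2:**
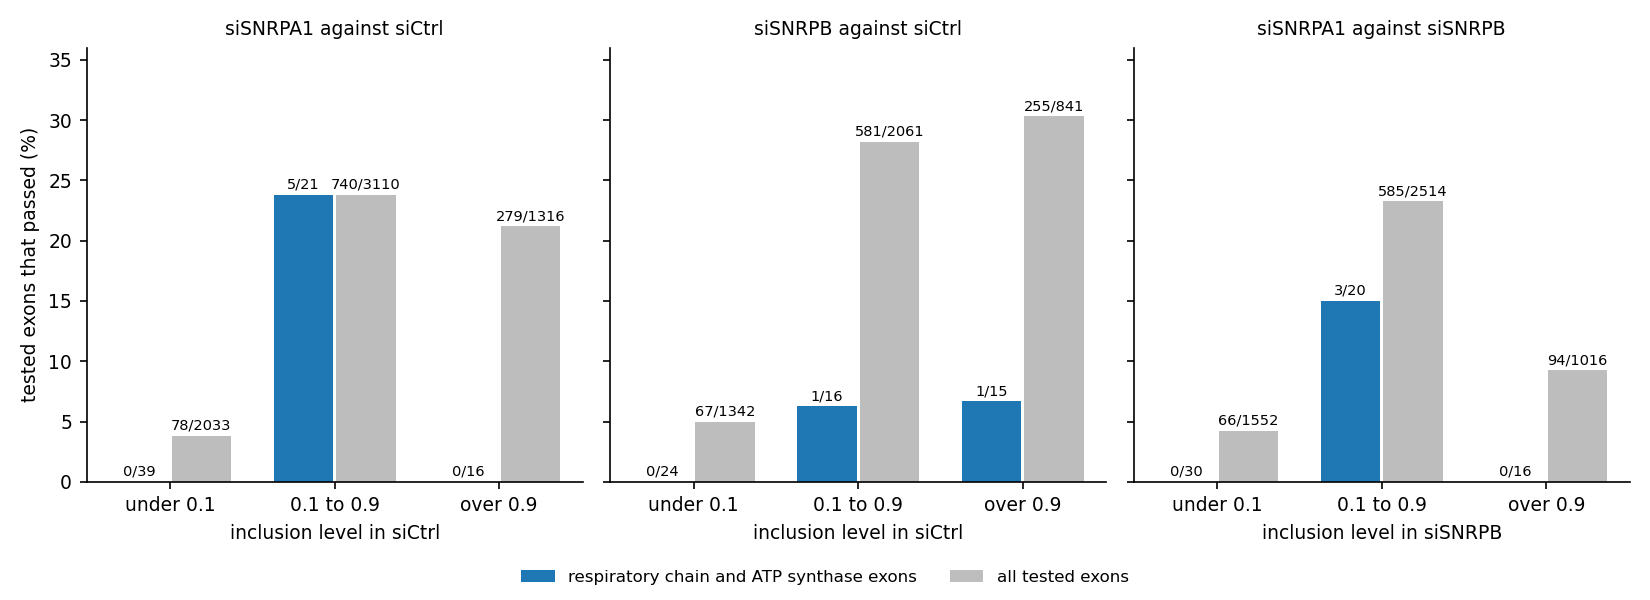
Percent of tested exons that passed (y axis) by the inclusion level in the second pool (x axis), for member exons (blue) and all tested exons (grey), with the numbers passed and tested over each bar. Members reach the share of all exons only in siSNRPA1 at levels of 0.1 to 0.9 (5 of 21); no member under 0.1 passed.

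Complex I held 5 of the 8 exons, and 76 of the 159 members. In siSNRPA1 against siCtrl 4 of its 30 tested exons passed (13.3%, beside 17% of all tested exons). In siSNRPB 1 of 20 did (5%, beside 21.3%), and between the knockdowns 1 of 24 (4.17%, beside 14.7%). NDUFB5 encodes an accessory subunit of the membrane arm of complex I. Its 67-base exon had 61 inclusion and 24 exclusion reads in siSNRPA1, 58 and 23 in siSNRPB, and 147 and 13 in siCtrl. Inclusion reads were thus 71.8% (95% Wilson interval 61.4 to 80.2) in siSNRPA1, 71.6% (61 to 80.3) in siSNRPB and 91.9% (86.6 to 95.2) in siCtrl; these intervals cover counting error only. The inclusion level was 0.62, 0.64 and 0.88 in that order of pools. It fell by 0.26 in siSNRPA1 (adjusted exact p = 0.000653) and by 0.24 in siSNRPB (adjusted exact p = 0.000633).

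The knockdown pools did not separate at this exon: siSNRPA1 minus siSNRPB was -0.02, with an adjusted exact p of 1, and their intervals overlapped over nearly their whole length. It was the only member to pass against siCtrl in both knockdowns, which share the siCtrl pool. The exclusion reads of this event join exon 1 to exon 4 of NDUFB5-201, so that form lacks exons 2 and 3. Together these hold 156 bases, the frame is kept, and 52 of 189 codons are missing. This junction is annotated in the protein-coding transcript NDUFB5-214. Reads that join exon 2 to exon 3 fall outside the event as the authors' annotation defines it, and GENCODE names 2 pseudogenes of NDUFB5.

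A second NDUFB5 exon, of 107 bases, had levels of 1.00 in siSNRPA1, 0.96 in siSNRPB and 1.00 in siCtrl. Its exclusion reads numbered 2 of 1172 informative reads in siSNRPA1, 18 of 473 in siSNRPB and 1 of 837 in siCtrl (adjusted exact p = 2.62e-06 for siSNRPB against siCtrl and 8.47e-07 for siSNRPA1 against siSNRPB). The difference of 0.04 was under the minimum, so the exon did not pass, and it was not tested in siSNRPA1 against siCtrl for want of exclusion reads.

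NDUFB6, another accessory subunit of the membrane arm, passed at 2 neighbouring exons in different comparisons. The 45-base exon had 129 inclusion and 34 exclusion reads in siSNRPA1, 76 and 11 in siSNRPB, and 128 and 13 in siCtrl. Its level was 0.77 in siSNRPA1, 0.85 in siSNRPB and 0.90 in siCtrl, and it fell by 0.13 in siSNRPA1 (adjusted exact p = 0.0256). siSNRPB lay between the other pools, with adjusted exact p values of 0.630 against siCtrl and 0.242 for siSNRPA1 minus siSNRPB. The skipped form, annotated as NDUFB6-201, lacks 15 of 128 codons and keeps the frame. SMIM27 overlaps this exon on the other strand. The kit keeps strand, but the sources used here do not say whether the authors' read assignment used it.

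The 93-base exon of NDUFB6 had 113 inclusion and 19 exclusion reads in siSNRPA1, 104 and 3 in siSNRPB, and 96 and 12 in siCtrl. Its level was 0.39 in siSNRPA1, 0.88 in siSNRPB and 0.50 in siCtrl, so that siSNRPA1 was lower than siSNRPB by 0.49 (adjusted exact p = 0.0143), the largest difference among the members that passed. Neither knockdown passed against siCtrl: siSNRPB was 0.38 above it (adjusted exact p = 0.0706) and siSNRPA1 0.11 below it (adjusted exact p = 0.701). The authors' Bayes factors against siCtrl were 1e+12 for siSNRPB and 0.71 for siSNRPA1. Inclusion reads made up 85.6%, 97.2% and 88.9% of the informative reads in siSNRPA1, siSNRPB and siCtrl, a much narrower range than the levels. The authors' level also draws on reads that fit both forms, which numbered 804, 259 and 525. Skipping keeps the frame and removes 31 codons.

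NDUFV3 is a small accessory subunit of the NADH-oxidising module of complex I, and its 1095-base exon, at chr21:42903182-42904276 (+), codes for most of the longer of its annotated proteins. Exclusion reads were 83 beside 1163 inclusion reads in siSNRPA1, 18 beside 392 in siSNRPB, and 21 beside 942 in siCtrl. The level was 0.37 in siSNRPA1, 0.34 in siSNRPB and 0.54 in siCtrl. The exon fell by 0.17 in siSNRPA1 (adjusted exact p = 1.13e-05). In siSNRPB the level was 0.20 below siCtrl with an adjusted exact p of 0.0753, so it did not pass, although the authors' deposited table gives it a Bayes factor of 340981000000. The difference between the knockdowns was 0.03 (adjusted exact p = 0.241). Counted as reads, inclusion was 93.3% in siSNRPA1, 95.6% in siSNRPB and 97.8% in siCtrl. The skipped form, NDUFV3-201, lacks 365 of 473 codons in frame.

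NDUFAF2 is an assembly factor of complex I. Its 41-base exon had 329 inclusion and 63 exclusion reads in siSNRPA1, 162 and 16 in siSNRPB, and 306 and 27 in siCtrl. The level was 0.75 in siSNRPA1 and 0.87 in both siSNRPB and siCtrl, and it fell by 0.12 in siSNRPA1 (adjusted exact p = 0.00847). In siSNRPB against siCtrl the difference was 0.00 (adjusted exact p = 0.838), and for siSNRPA1 minus siSNRPB it was -0.12 (adjusted exact p = 0.0812), so the knockdowns were not shown to differ. The exclusion form, annotated as NDUFAF2-202, shifts the frame at codon 73 of 169 and meets the stop codon printed above 14 bases after the junction, in the last exon.

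NDUFS1, the largest core subunit, with iron-sulphur clusters, did not pass, and its 92-base exon is named after its values were seen. It had 163 inclusion and 8 exclusion reads in siSNRPA1, 56 and 0 in siSNRPB, and 138 and 1 in siCtrl, with levels of 0.58, 0.85 and 0.93. siSNRPA1 minus siCtrl was -0.35, the largest drop of level among tested members of that comparison, with an adjusted exact p of 0.107; the authors' deposited table gives a Bayes factor of 154640. Skipping of this exon shifts the frame, and the stop codon stands 5 bases after the junction and 1931 bases before the last junction of the transcript. Among tested complex I exons that passed nowhere, the most deeply read was the 172-base exon of NDUFS4, an accessory subunit of the matrix arm, found in transcripts annotated for nonsense-mediated decay (NMD). Its level was 0.01 in each pool.

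**Figure D3:**
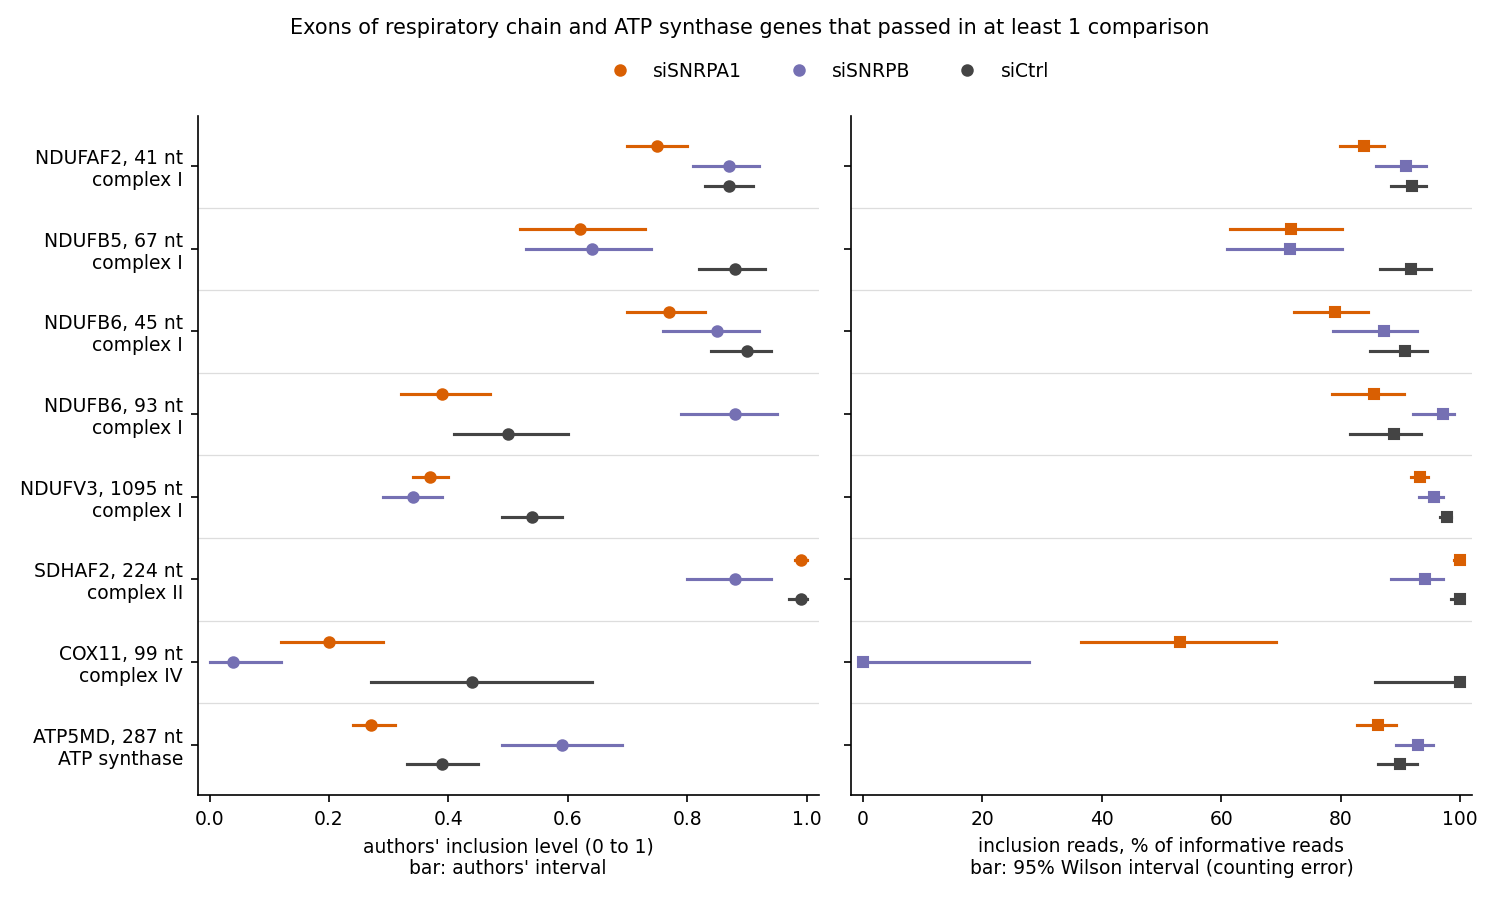
The 8 member exons that passed in at least 1 comparison, in siSNRPA1 (orange), siSNRPB (purple) and siCtrl (grey). Left, the authors' inclusion level with their interval; right, inclusion reads as a percent of informative reads with 95% Wilson intervals. The NDUFB5 exon sits at 0.62 and 0.64 in the knockdowns beside 0.88 in siCtrl, while NDUFB6 (93 bases) and ATP5MD have siSNRPA1 and siSNRPB on opposite sides of siCtrl in the left panel.

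Complex II oxidises succinate, and SDHAF2 is the assembly factor that attaches the flavin cofactor to its catalytic subunit. The 224-base exon of SDHAF2, at chr11:61437625-61437848 (+), had no exclusion read beside 382 inclusion reads in siSNRPA1, 7 beside 113 in siSNRPB, and none beside 261 in siCtrl. The level was 0.99 in siSNRPA1, 0.88 in siSNRPB and 0.99 in siCtrl. It fell by 0.11 in siSNRPB (adjusted exact p = 0.00173) and was higher by 0.11 in siSNRPA1 than in siSNRPB (adjusted exact p = 0.000554). Both calls rest on the same 7 reads. With 3 reads taken as an approximate upper limit for a count of 0, the exclusion share could be up to 0.785% in siSNRPA1 and 1.15% in siCtrl.

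Those reads join exon 1 of SDHAF2-201 to exon 4, as in SDHAF2-206, and leave out 334 bases in 2 exons. Reads that join exon 2 to exon 3 fall outside this event, as for NDUFB5. Reads that join exon 2 to exon 4 fit its inclusion form, and they are the exclusion reads of the 110-base exon below. The frame shifts at codon 13 of 166 and a stop follows 48 bases after the junction. The next exon, of 110 bases, at chr11:61438004-61438113 (+), showed another pattern. Its level was 0.90 in siSNRPA1, 0.90 in siSNRPB and 0.98 in siCtrl, with 501 inclusion and 42 exclusion reads, 186 and 15, and 334 and 5. The adjusted exact p was 0.000292 for siSNRPA1 and 0.00332 for siSNRPB against siCtrl, but differences of 0.08 were under the minimum. Leaving it out shifts the frame and gives a stop 4 bases after the junction.

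Other complex II exons showed small differences on many reads. The 144-base coding exon of SDHA, the catalytic flavoprotein, at chr5:225419-225562 (+), had 4979 inclusion and 718 exclusion reads in siSNRPA1, 2072 and 256 in siSNRPB, and 3169 and 283 in siCtrl. Its level was 0.81 in siSNRPA1, 0.83 in siSNRPB and 0.87 in siCtrl, with adjusted exact p values of 2.49e-09 and 0.00227 against siCtrl. It is the most deeply read complex II exon that did not pass. Leaving it out keeps the frame, and GENCODE names 3 pseudogenes of SDHA, to which some of its reads could belong. The 145-base exon of SDHD, a membrane anchor of the complex, was at 0.96 in siSNRPA1, 0.97 in siSNRPB and 1.00 in siCtrl. Exclusion reads of it numbered 14, 5 and 0 in these pools (adjusted exact p = 0.0152 and 0.0495 against siCtrl). Of the 12 complex II exons tested in siSNRPA1, 5 had an adjusted p under 0.05 and all 5 had the lower share in siSNRPA1. Among all tested exons 31.8% had such a p, 22% with the lower and 9.83% with the higher share. In siSNRPB this was 6 of 8, also with the lower share in all 6, beside 38% of all tested exons, 28.8% lower and 9.17% higher. These exons lie in 4 genes and some overlap, so they are not independent.

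No exon of complex III passed in any comparison, with 8 exons tested for siSNRPA1 and 7 for siSNRPB against siCtrl, and 7 for the knockdowns against each other. UQCRB, a subunit near the ubiquinone site, had an adjusted p under 0.05 against siCtrl in both knockdowns. Its 290-base exon, which occurs in NMD transcripts, had a level of 0.19 in siSNRPA1, 0.17 in siSNRPB and 0.10 in siCtrl. It had 295 inclusion and 763 exclusion reads in siSNRPA1, 99 and 260 in siSNRPB, and 104 and 564 in siCtrl (adjusted exact p = 9.48e-08 and 9.48e-05 against siCtrl). Inclusion reads were 27.9%, 27.6% and 15.6% in that order, so both knockdown pools stood above siCtrl by more than their intervals, while the differences in level, 0.09 and 0.07, stayed under 0.1. A 137-base exon of UQCRB overlaps it and shares its exclusion reads. The most deeply read of the tested complex III exons, the 27-base exon of UQCRH, the hinge subunit, was at 0.98 in siSNRPA1, 0.98 in siSNRPB and 1.00 in siCtrl. The 217-base exon of UQCRC2, named after its values were seen, was at 0.46 in siSNRPA1, 0.25 in siSNRPB and 0.84 in siCtrl. It had 37, 4 and 23 inclusion reads in these pools and no exclusion read, so it could not be tested.

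Complex IV, cytochrome c oxidase, had 1 exon that passed, of 10 tested in siSNRPA1 against siCtrl (10%, beside 17% of all tested exons). In siSNRPB 0 of 9 passed, and between the knockdowns 0 of 11. COX11 is a copper chaperone for the assembly of this complex. Its 99-base exon, at chr17:54953661-54953759 (-), occurs in a noncoding transcript. It had 17 inclusion and 15 exclusion reads in siSNRPA1, 0 and 10 in siSNRPB, and 23 and 0 in siCtrl. The level was 0.20 in siSNRPA1, 0.04 in siSNRPB and 0.44 in siCtrl, and the exon fell by 0.24 in siSNRPA1 (adjusted exact p = 0.000588). siSNRPB had only 10 informative reads, so the exon was not tested in comparisons with that pool. With a minimum of 10 informative reads, it also fell in siSNRPB against siCtrl and was higher in siSNRPA1 than in siSNRPB. The authors' Bayes factors against siCtrl were 5.64 for siSNRPA1 and 2.29e+10 for siSNRPB. The exclusion junction occurs in 3 transcripts, all annotated for NMD, and no annotated protein-coding transcript carries it. TOM1L1 overlaps the exon on the other strand, and GENCODE names 1 pseudogene of COX11. Of all 66 member genes, 37 have a named pseudogene. ATP5MD, SDHD, UQCRB, UQCRH and NDUFA3 are among these, so the same limit holds for their exons.

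Other complex IV exons had large differences in level on few or no exclusion reads. The 115-base coding exon of COX20, an assembly chaperone, had a level of 0.80 in siSNRPA1, 0.71 in siSNRPB and 0.86 in siCtrl. In siSNRPB it had 55 inclusion and 14 exclusion reads, against 160 and 17 in siCtrl (adjusted exact p = 0.0747). The 125-base coding exon of COX10, which makes the haem of this complex, had no exclusion read in any pool and yet levels of 0.41 in siSNRPA1, 0.47 in siSNRPB and 0.87 in siCtrl. The 74-base exon of COX4I1, a nuclear-encoded subunit, also had no exclusion read in any pool, and its levels went the other way, at 0.72 in siSNRPA1, 0.82 in siSNRPB and 0.56 in siCtrl; the authors' deposited table gives Bayes factors of 89.6 for siSNRPA1 and 1425 for siSNRPB against siCtrl. Neither of these could be tested, and both were named after their values were seen. The most deeply read complex IV exon that did not pass was the 101-base exon of the subunit COX6B1, at 0.99 in siSNRPA1, 1.00 in siSNRPB and 1.00 in siCtrl.

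The ATP synthase had 1 exon that passed, of 14 tested between the knockdowns (7.14%, beside 14.7% of all tested exons). Against siCtrl, 0 of its 16 tested exons passed in siSNRPA1 and 0 of 11 in siSNRPB. ATP5MD encodes a small subunit of the membrane part of the ATP synthase. The 287-base exon, at chr10:103395746-103396032 (-), lies in the 5′ UTR. It had 372 inclusion and 59 exclusion reads in siSNRPA1, 253 and 19 in siSNRPB, and 305 and 34 in siCtrl. Its level was 0.27 in siSNRPA1, 0.59 in siSNRPB and 0.39 in siCtrl, so siSNRPA1 was lower than siSNRPB by 0.32 (adjusted exact p = 0.0280). Against siCtrl the adjusted exact p was 0.260 for siSNRPA1 and 0.301 for siSNRPB, so neither passed. The authors' Bayes factors for these comparisons were 21.4 and 292. By reads, inclusion was 86.3% in siSNRPA1, 93.0% in siSNRPB and 90.0% in siCtrl. The 183-base exon of ATP5F1B, the catalytic beta subunit, was the most deeply read member of the ATP synthase that did not pass, at 0.98 in siSNRPA1, 0.99 in siSNRPB and 0.98 in siCtrl.

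The members were also grouped by where the exon lies in the annotation. Of 159 exons, 80 were coding, 13 partly coding, 8 in the 5′ UTR, 39 in NMD transcripts, 16 in noncoding transcripts, and 3 matched no annotated exon of their gene. Coding exons had a median level of 0.98 in siCtrl, and exons of NMD transcripts 0.03. In siSNRPA1 against siCtrl, 29 coding exons were tested and 10 had an adjusted p under 0.05, 9 of them with the lower share in siSNRPA1. Of 24 exons of NMD transcripts, 7 did, 5 with the higher share in siSNRPA1. In siSNRPB against siCtrl, coding exons had 7 with the lower and 2 with the higher share among 25 tested, and exons of NMD transcripts 5 with the lower and 2 with the higher share among 17. Over all tested exons of the series, of any place, 22% had such a p with the lower and 9.83% with the higher share in siSNRPA1, and 28.8% and 9.17% in siSNRPB. The shares over coding exons or exons of NMD transcripts of the series are not given here. An exon nearly always included has little room to rise, and one rarely included little room to fall. The directions in these groups can therefore not be set against each other.

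Among exons of NMD transcripts, those of 3 accessory subunits of complex I had a lower read share in siSNRPB than in both other pools, with an adjusted exact p under 0.05 in both comparisons. They were picked after their values were seen. Between the knockdowns 18 exons of NMD transcripts were tested. Over all tested exons of that comparison, 16.4% had such a p with the higher and 10.5% with the lower share in siSNRPA1. The share of all exons with such a p in both comparisons is not given here. The 107-base exon of NDUFA3 had 90 inclusion and 351 exclusion reads in siSNRPA1, 11 and 178 in siSNRPB, and 56 and 201 in siCtrl. Its level was 0.10 in siSNRPA1, 0.03 in siSNRPB and 0.11 in siCtrl (adjusted exact p = 2.65e-05 for siSNRPB against siCtrl and 3.74e-05 for siSNRPA1 against siSNRPB). The 120-base exon of NDUFA11 was at 0.08 in siSNRPA1, 0.03 in siSNRPB and 0.09 in siCtrl, with adjusted exact p values of 0.00346 and 0.00773 for the same comparisons. The 210-base exon of NDUFAB1, the mitochondrial acyl carrier protein, had 29 inclusion and 188 exclusion reads in siSNRPA1, 1 and 84 in siSNRPB, and 11 and 99 in siCtrl. Its level was 0.02 in siSNRPA1, 0.01 in siSNRPB and 0.02 in siCtrl, with adjusted exact p values of 0.0388 and 0.00395 for these comparisons. Levels this low cannot fall by 0.1 or can barely do so, and none of the 3 exons passed.

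The reading frame after exclusion could be followed for 73 members within a complete annotated coding sequence, with all exons between the event's outer exons left out. Some of these sequences belong to another gene. The 192-base exon listed under NDUFS3 was followed in PTPMT1-202, and the 103-base exon listed under NDUFA9 in AC005833.1-201. The frame was kept in 34 and shifted in 39, and in 21 of the shifted forms the first stop stood more than 50 bases before the last junction. Member exons were close to other exons of the same read minimum in length, with a median of 117 bases beside 123. A length that is a multiple of 3 was found in 37.7% of members and 41.7% of all such exons. Reads that fit neither form had a median share of 48.9% in siSNRPA1, 47.9% in siSNRPB and 52.1% in siCtrl over the members, beside 56.8%, 53.5% and 58.7% over all such exons, lower in the knockdowns than in siCtrl for both sets.

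Reads over the genes give a rough measure of their level, since a read can count in several events of a gene and fewer cells or less RNA per cell cannot be told apart. Of the 66 genes, 64 had at least 200 reads in a pool. In siSNRPA1 their median was 109% of siCtrl, beside 100% for all 7426 genes with that many reads. They ranged from 71.3% for NDUFA10, an accessory subunit of complex I, to 139% for NDUFS4. None differed by more than 1.5-fold, beside 3.95% of all genes above and 6.94% below that fold.

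In siSNRPB the median was 99.6% of siCtrl, beside 95.7% for all genes, with a wider range. In that pool 2 genes were more than 1.5-fold above siCtrl and 8 more than 1.5-fold below it (3.13% and 12.5%), beside 6.87% and 18.7% of all genes. The lowest was NDUFV1, the NADH-binding core subunit, with 180 RPM in siSNRPA1, 99.4 in siSNRPB and 237 in siCtrl. The highest was NDUFAF5, an assembly factor of complex I, with 26.4, 37.2 and 21.7 RPM in these pools. With 1 library in siSNRPB and no replicate, these values have no test. The genes with exons that passed were between 64.7% (NDUFAF2) and 109% (ATP5MD) of siCtrl in siSNRPB, and between 75.2% (NDUFB5) and 101% (SDHAF2) in siSNRPA1.

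**Figure D4:**
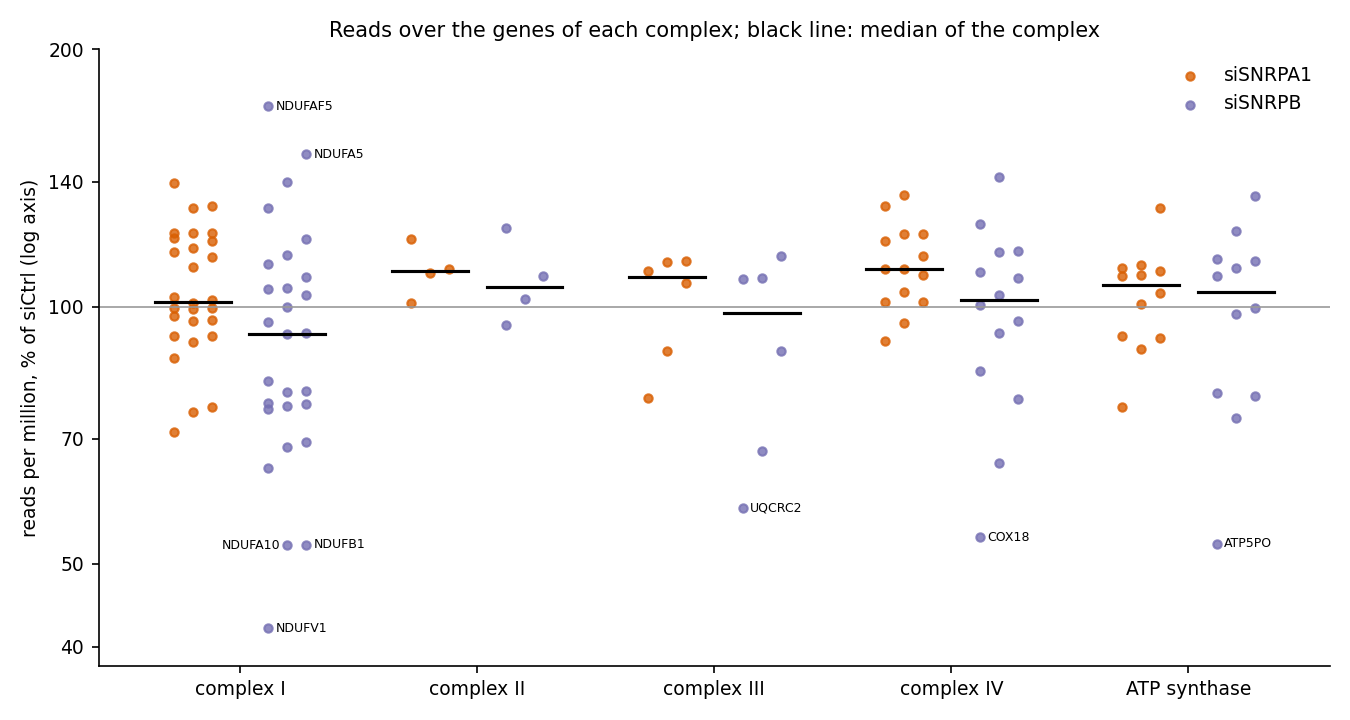
Reads over each of 64 genes as a percent of siCtrl, each scaled to RPM (log axis), by complex, in siSNRPA1 (orange) and siSNRPB (purple); black lines are medians and the grey line is siCtrl. siSNRPA1 values lie between 71.3% and 139%, and siSNRPB values between 42.0% (NDUFV1) and 172% (NDUFAF5).

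The read minimum kept some exons at its edge. Just inside were the 133-base exon of UQCR11, a complex III subunit, with 20 informative reads in siCtrl, and the 118-base exon of NDUFB1 and the 27-base exon of SDHC with 22 in their limiting pool. Just outside were a 24-base exon of the readthrough gene ATP5MF-PTCD1 with 19, and a 56-base exon of NDUFAF7, an assembly factor, with 18. Before the minimum the rule found 241 events in 80 genes. Of the 159 exons, 81 could be tested in at least 1 comparison. Of the 83 not tested in siSNRPA1 against siCtrl, 59 had no exclusion read in either pool; 6 of the 83 had a level at least 0.1 below siCtrl and 4 at least 0.1 above, beside 1359 and 897 of 11397 such exons in the series.

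Other mitochondrial genes from 5 lists were run through the same tests. Of their tested exons, 8.33% to 21.9% per list passed in siSNRPA1 against siCtrl (17% of all exons), 0% to 25% in siSNRPB against siCtrl (21.3%) and 11.1% to 21.7% between the knockdowns (14.7%). Of 32 tested exons of genes for mitochondrial import and cristae, 6 fell and 1 rose in siSNRPA1. The largest difference among these was in HSPA9, the import chaperone, whose 102-base exon was at 0.48 in siSNRPA1, against 0.99 in siCtrl, with 577 inclusion and 84 exclusion reads against 496 and 0 (adjusted exact p = 2.26e-19). In siSNRPB 4 fell and 1 rose of 26, led by the 59-base exon of the translocase subunit TIMM50, at 0.57 in siSNRPB, against 0.89 in siCtrl (adjusted exact p = 0.00588). Between the knockdowns 4 of 29 were lower in siSNRPA1, again led by HSPA9, at 0.48 in siSNRPA1, against 0.79 in siSNRPB (adjusted exact p = 0.00433).

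Of genes for the tricarboxylic acid cycle and pyruvate dehydrogenase, 3 of 18 tested exons fell in siSNRPA1 and 2 of 11 in siSNRPB, and none rose. They were led by the 114-base exon of PDHA1, a pyruvate dehydrogenase subunit, at 0.07 in siSNRPA1, against 0.39 in siCtrl (adjusted exact p = 0.00983). In siSNRPB the leading exon was the 56-base exon of DLST, an oxoglutarate dehydrogenase subunit, at 0.72, against 0.96 in siCtrl (adjusted exact p = 0.0275). Between the knockdowns 1 of 10 was lower and 1 higher. The largest difference was in PDP1, a phosphatase of pyruvate dehydrogenase, whose 35-base exon was at 0.26 in siSNRPA1, against 0.03 in siSNRPB (adjusted exact p = 0.000374).

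Assembly factors outside the symbol rule had 1 of 24 tested exons falling and 1 rising in siSNRPA1, 0 of 16 falling and 1 rising in siSNRPB. In siSNRPA1 minus siSNRPB they had 1 of 18 lower and 1 higher. TMEM126B, of complex I assembly, led in siSNRPA1 with a 172-base exon at 0.71, against 0.92 in siCtrl (adjusted exact p = 0.0372). LYRM4, of iron-sulphur cluster assembly, had a 125-base exon at 0.28 in siSNRPB, against 0.08 in siCtrl (adjusted exact p = 0.0415), and at 0.06 in siSNRPA1, against 0.28 in siSNRPB (adjusted exact p = 0.00237).

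Genes for cytochrome c and coenzyme Q synthesis had 5 tested exons in each comparison, of which 0 passed in siSNRPB against siCtrl. The 150-base exon of COQ10B, a coenzyme Q binding protein, was the one that passed, at 0.85 in siSNRPA1, against 0.96 in siCtrl (adjusted exact p = 0.00652) and 0.95 in siSNRPB (adjusted exact p = 0.0265). Mitochondrial transcription and fusion genes had 1 exon falling and 1 rising of 23 in siSNRPA1, 5 and 1 of 24 in siSNRPB, and 1 lower and 4 higher of 23 between the knockdowns. MFF, a fission factor, led in siSNRPA1 with a 75-base exon at 0.33, against 0.49 in siCtrl (adjusted exact p = 0.0315). MTERF4, of mitochondrial ribosome assembly, led in siSNRPB with a 153-base exon at 0.58, against 0.90 in siCtrl (adjusted exact p = 0.0206), and between the knockdowns at 0.89 in siSNRPA1, against 0.58 in siSNRPB (adjusted exact p = 0.0268).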

How the data were processed

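Per the labels' protocols, libraries were made with a stranded total RNA kit 48 h after transfection. STAR 2.7 and hg38 are named in the submitters' processing notes; the sources used here do not give the version or settings of MISO, whose summary format the deposited files have. The authors deposited, per group, counts of reads that fit inclusion, exclusion, both or neither form, the inclusion level (a fraction from 0 to 1) with its interval, and, in their comparisons with siCtrl, a Bayes factor, which is a ratio of evidence, and the difference in level as a signed score. Libraries per pool were 3 (siSNRPA1), 1 (siSNRPB) and 2 (siCtrl). Here the event with the most informative reads stood for each skipped exon. Exons were tested as described, with scipy 1.17.1 and pandas 2.3.3 in Python 3.11.15, after a check on simulated counts. Intervals cover counting error only, since reads carry no molecular identifiers. Named exons were all members that passed, the most deeply read tested exon per complex that passed nowhere, those at the edge of the read minimum, and the leading exon of each other list. The exons NDUFB5 107, NDUFS1 92, SDHAF2 110, SDHD 145, UQCRB 290 and 137, UQCRC2 217, COX20 115, COX10 125, COX4I1 74, NDUFA3 107, NDUFA11 120 and NDUFAB1 210 (lengths in bases) were chosen after their values were seen. The members and lists were chosen with earlier results of these data known.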

Additional observations from a re-analysis of the deposited data

Results flagged for a closer look

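The informative reads of 3 exons differed between siSNRPA1 and siSNRPB by Fisher's exact test, with a difference of at least 0.1 in the authors' inclusion level, which was itself not tested. The 93-base exon of NDUFB6 was at 0.39 in siSNRPA1 and 0.88 in siSNRPB, a difference of -0.49. The 287-base exon of ATP5MD was at 0.27 in siSNRPA1 and 0.59 in siSNRPB, a difference of -0.32. In both, siCtrl lay between the knockdowns and neither knockdown passed against it by the test used here. The authors' Bayes factors against siCtrl were 0.71 (siSNRPA1) and 1e+12 (siSNRPB) for NDUFB6. For ATP5MD they were 21.4 and 292. The 224-base exon of SDHAF2 was at 0.99 in siSNRPA1 and 0.88 in siSNRPB, a difference of 0.11, with siCtrl at 0.99. The share of inclusion reads, on which the test rests, was 85.6% in siSNRPA1 and 97.2% in siSNRPB for NDUFB6, 86.3% and 93.0% for ATP5MD, and 100% and 94.2% for SDHAF2. With counts divided by 2, neither NDUFB6 nor ATP5MD passed, and SDHAF2 had too few exclusion reads to be tested. ATP5MD also did not pass with reads thinned to the smallest pool (adjusted exact p = 0.0571). With no minimum of inclusion and exclusion reads it did not pass either (adjusted exact p = 0.0768). Each compares 1 pool with 1 pool, siSNRPB being a single library.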

How the results depend on the processing

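No paired analysis was possible because the deposited summaries hold 1 pool per group with no column per replicate, and for the same reason no replicate could be left out. The number of members that passed was 5 in siSNRPA1 against siCtrl, 2 in siSNRPB against siCtrl and 3 in siSNRPA1 against siSNRPB. With a difference of at least 0.2 the first became 2, the second 1 and the third 2. With a minimum of 10 informative reads the second became 3 and the third 4, with the COX11 exon added in each. With the share of inclusion reads in place of the authors' level the counts were 10 (5 fell, 5 rose), 8 (6 fell, 2 rose) and 7 (2 lower, 5 higher), and only 3, 1 and 1 of the exons that passed by level were among them. Reads thinned to the smallest pool gave 1, 2 and 2, and counts divided by 2 gave 2, 1 and 0. With no minimum of inclusion and exclusion reads the counts were 4, 2 and 2. That setting lost the 45-base exon of NDUFB6 in siSNRPA1 against siCtrl and the ATP5MD exon between the knockdowns. Without members that share their position with an opposite-strand gene the count was 3 in siSNRPA1 against siCtrl. The authors' Bayes factor of at least 10 gave 5 in siSNRPB, of which 3 fell and 2 rose. Without a minimum for the difference, an alternative chosen after seeing the data, the counts were 24, 20 and 16. For the exons that passed somewhere, 208 values kept their side of the threshold without turning direction, 22 fell below it and 4 rose above it. The 208 include values that had not passed to begin with. They also include settings that left the reads and the level of an exon unchanged. An exon that could not be tested under a setting is not counted, such as COX11 with a minimum of 50 informative reads. The count therefore does not measure how stable the calls were. With the share of inclusion reads, 2 differences that did not pass turned direction: siSNRPA1 minus siSNRPB was 0.0016 for the NDUFB5 67-base exon (-0.02 by level) and -0.0227 for NDUFV3 (0.03 by level). In siSNRPB against siCtrl 55 members were tested, of 140 with the read minimum in both pools. Of the 85 others, 68 had fewer than 5 exclusion reads over the 2 pools and 58 had none. Why the counts changed with the setting was not tested.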
